A study of Taxus mairei and Taxus cuspidata and Taxus x media with 9 samples.

Results

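Gene expression in the twigs of *T. media*, a hybrid yew that has *T. cuspidata* as a parent, was compared with that of *T. cuspidata* itself, with genes counted by KEGG ortholog. A KEGG ortholog, written as a K number, is a group of genes from any species to which the same function is assigned. The transcripts of the yews were assembled from the reads without a genome, so that a gene can be split over several unigenes (assembled transcripts taken as genes), and gene copies of like sequence can share reads. Counts were therefore summed over all unigenes that carry the same K number. This gave 2095 orthologs from 8425 of 33895 unigenes (24.9%), and the comparison used 6 of the 9 libraries of the study, 3 of *T. media* and 3 of *T. cuspidata*. The third yew, *T. mairei*, was not compared. Its 2 libraries with counts entered the scaling, the filter on low counts and the estimate of the spread.

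The trees were 3 years old and grew at 25 °C under 12 h of light and 12 h of dark. RNA was taken from fresh twigs, which hold both wood and needles, with no treatment, and the species is the only difference that the labels give between the groups. The sources do not say which trees went into which library, so that p-values measure only the spread between these libraries. In whole twigs, fewer cells of a type and less RNA per cell cannot be told apart.

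Yews make taxanes, the diterpenoids to which the drug paclitaxel belongs. The plastid MEP (methylerythritol phosphate) pathway and the cytosolic mevalonate pathway supply isoprenoid units, and prenyl diphosphate synthases join them into geranylgeranyl diphosphate. That substrate is shared by the cyclases of taxane, gibberellin and resin acid synthesis and by carotenoid and chlorophyll synthesis. Phenylpropanoids, made from phenylalanine, give lignin for the wood and flavonoids, and jasmonate is a wound hormone that is known to raise taxane synthesis in yew cell cultures.

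The libraries held 32783233 to 41647131 counted reads in *T. media* and 39192663 to 44821305 in *T. cuspidata*. Of these, 46.2 to 47.9% fell on unigenes with a K number in *T. media* and 48.7 to 53.3% in *T. cuspidata*. Of the orthologs, 766 held a single unigene, 707 held 2 or 3, 492 held 4 to 9, and 130 held 10 or more. On log2 ortholog values, library pairs correlated (across orthologs, which are not independent) with r from 0.987 to 0.995 within *T. media*, 0.984 to 0.994 within *T. cuspidata*, and 0.924 to 0.947 between them. Values below are normalized CPM, that is counts over the library total after TMM scaling (a correction for unequal composition of libraries). An ortholog or unigene is called when its log2 fold change of *T. media* over *T. cuspidata* is beyond 1 in either direction (more than 2-fold) and its p, by the quasi-likelihood test of edgeR with Benjamini-Hochberg adjustment, is below 0.05.

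Among 2094 orthologs tested, 301 (14.4%) were called. The *T. media* side held 111 of these (5.3% of those tested) and the *T. cuspidata* side 190 (9.07%). The median log2 fold change over all orthologs was -0.17, and this shift depended on the scaling. With TMM factors computed on the orthologs themselves, the median was -0.03 and the calls were 135 and 120, so that the share higher in *T. media* moved from 36.9% to 52.9%. With library sizes alone the calls were 154 and 98, and with DESeq2 they were 144 and 111. With RLE factors, another scaling, they were 109 and 202. With limma on TPM they were 124 and 130 (pseudocount 1) or 129 and 141 (pseudocount 0.1). Which species had more called orthologs therefore depended on the scaling and flipped under some, whereas no called ortholog was called in the other direction in any of these fits. The normalized CPM of the 3 libraries of one species lay wholly above those of the other for 1405 orthologs (67.1% of all tested), and for 299 of the 301 called.

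Among orthologs with counts in all 6 libraries and a mean TPM of at least 5, the 8 furthest above 0 held oxidases, transporters and cytochromes P450. K00368 reached 406, 422 and 395 normalized CPM in *T. media* and 7.33, 9.32 and 11.1 in *T. cuspidata* (means 408 ± 13.4 and 9.26 ± 1.9, SD, n = 3 each). The log2 fold change was 5.46 ± 0.34 (SE, edgeR adjusted p = 5.8e-06). Its KEGG name is nitrite reductase, but all 9 of its unigenes bear laccase gene names (LAC12, LAC1, LAC11, LAC2 and LAC3). Laccases are copper oxidases that couple lignin monomers in the cell wall, and a single LAC12 unigene, comp30232_c0, held 92.9% of the ortholog's reads in *T. media*. The nitrate transporter ortholog K02575 (unigenes named NRT2.1 and NRT2.4) stood at 146, 140 and 109 against 3.89, 7.22 and 6.98, a log2 fold change of 4.44 ± 0.23 (adjusted p = 3.6e-06). Alpha-dioxygenase K10529 (DOX1), which oxidizes fatty acids in plant defense, stood at 155, 159 and 197 against 2.47, 7.88 and 12.6 (4.47 ± 0.49, adjusted p = 0.0001). In each of these the lowest library of *T. media* was many times the highest of *T. cuspidata*.

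Also called by this rule were inositol oxygenase K00469 (MIOX1), at 25.7, 10.7 and 17.4 against 0.489, 0.189 and 1.12, and sarcosine oxidase K00301, at 97, 81.3 and 85 against 5.08, 3.82 and 4.61. Their log2 fold changes were 4.89 and 4.28. The names given to K numbers of animal or Arabidopsis enzymes were not always those of the unigenes beneath them. K11868, named for CYP71A13, held unigenes named CYP71A4 and CYP750A1 (log2 fold change of the sum 4.91). K07414, named for CYP2D of animals, held a unigene named CYP750A1 and another without a name (sum 3.54). K00071, a steroid dehydrogenase of animals, held a single unigene, named Kdsr (3.97). The species did not overlap in any of these 8 orthologs, as the rule required. On TPM with a pseudocount of 1, smaller by over 1.5 times were K00368 (4.17), K02575 (3.66), K00469 (3.23) and K11868 (3.49), and all stayed called.

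Those furthest below 0 by the same rule included enzymes of brassinosteroid, fatty acid and sucrose metabolism. CYP85A1 (K09590), a late step of brassinosteroid synthesis, stood at 13.7, 18 and 19.8 in *T. media* and 151, 143 and 151 in *T. cuspidata* (log2 fold change -3.11 ± 0.13, adjusted p = 2e-06). The oleate desaturase FAD2 (K10256) stood at 8.12, 10.6 and 13.6 against 92.6, 82.8 and 102 (-3.10 ± 0.18, adjusted p = 5.2e-06). Neither overlapped between the species, as the rule required. The fatty acid elongase K10249 (log2 fold change -3.05), the glutathione-degrading ChaC protein K07232 (-3.10) and the lipocalin K03098 (-2.56) were of like size. The mitochondrial COX2 (K02261, -3.08) was very low in both species, at 0.0623 to 0.128 and 0.574 to 1.44.

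Beta-fructofuranosidase (K01193), the invertase that splits sucrose, was 67.4, 60.7 and 68 in *T. media* and 466, 396 and 369 in *T. cuspidata* (-2.65 ± 0.14, adjusted p = 3.6e-06), with -1.09 on TPM. It held 10 unigenes, of which 4 were called higher in *T. media* and 3 in *T. cuspidata*, and the sum followed the abundant cell wall invertase CWINV1 (comp28580_c1), at 11.8, 10.8 and 14.4 against 376, 305 and 275. The sum thus took the direction of its most abundant unigene and not that of the larger number.

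**Figure D1:**
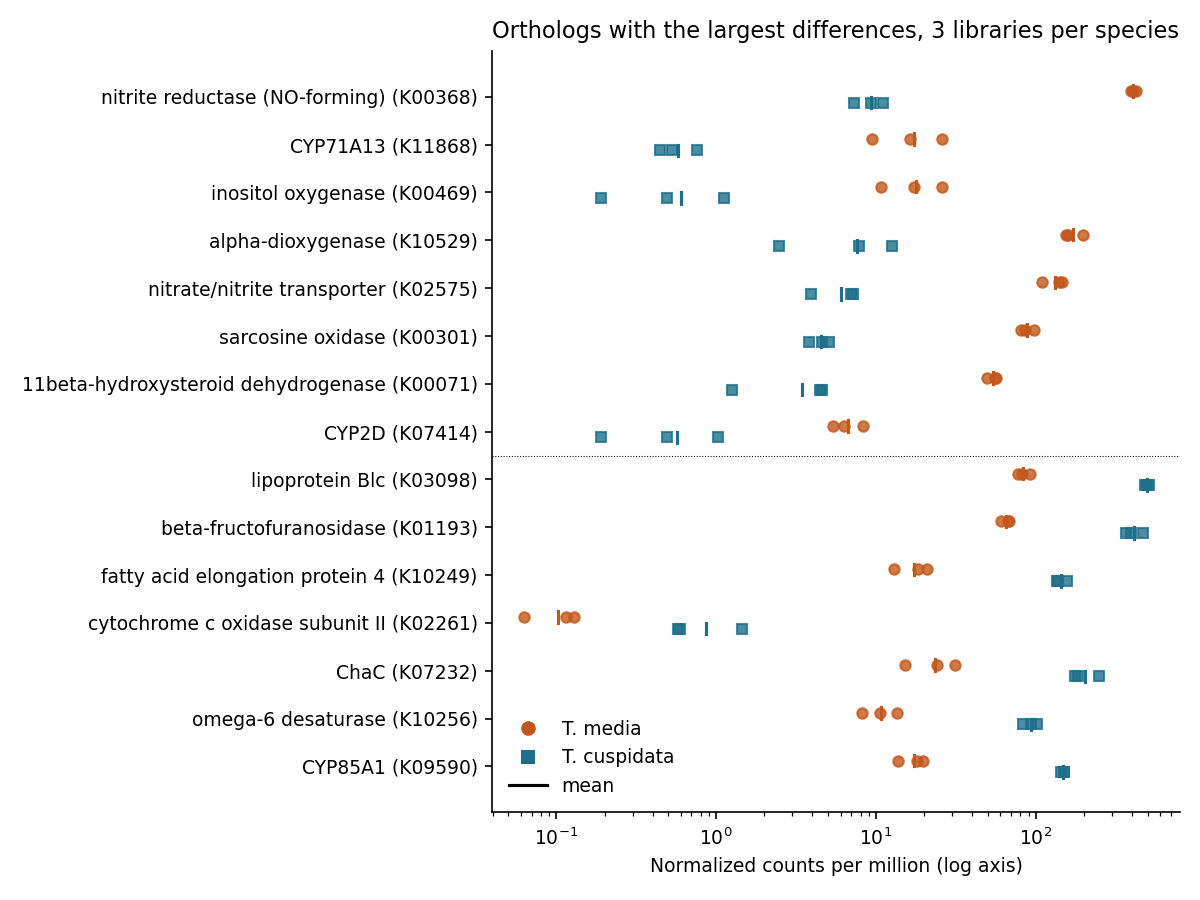
Normalized CPM (log axis) of the 8 called orthologs with the largest and 7 of those with the smallest log2 fold change among orthologs with counts in all 6 libraries, a mean TPM of at least 5 and no overlap, with a point for each library of *T. media* and *T. cuspidata*. In every panel row the 3 libraries of one species lie apart from the 3 of the other, as for K00368 at 395 to 422 against 7.33 to 11.1.

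A few orthologs, named after their values were seen, had no or almost no counts in a species. RAD54 (K10875), a DNA repair protein, had 291, 228 and 258 counts in *T. media* and none in *T. cuspidata*, at least 257-fold higher against a floor of 3 counts over the group. The arsenite transporter K03325 had 6, 4 and 5 counts in *T. cuspidata* and none in *T. media*, and was at least 5.05-fold lower in *T. media*. The class II aldolase K01624 had none in *T. media* and 0, 38 and 54 in *T. cuspidata*, so that its call rests on 2 libraries and the groups overlap. The call was lost with DESeq2 and without any of the *T. media* replicates. CYP79A2 (K12153), with a single unigene, averaged 30.8 normalized CPM in *T. media*, from 9.26 to 70.9, and 0.0315 in *T. cuspidata*, with 2 libraries at 0 counts.

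Pathways differed in how often their orthologs were called and in direction. Of 100 KEGG pathways with 10 or more tested orthologs, 21 held no called ortholog and 46 had a share above the 14.4% of all orthologs. The highest shares were those of antenna proteins (63.6%, 7 of 11), phenylpropanoid biosynthesis (53.3%, 8 of 15), photosynthesis (41%, 16 of 39), carbon fixation (38.1%, 8 of 21), and alpha-linolenic acid metabolism and flavonoid biosynthesis (36.4%, 4 of 11 each). All calls were toward *T. cuspidata* in antenna proteins and photosynthesis, and all toward *T. media* in alpha-linolenic acid metabolism and flavonoid biosynthesis. Orthologs can belong to several pathways, so that a called ortholog can count in several shares, and these shares are descriptions with no test. A shorter list of flavonoid enzymes, given below, held 2 called orthologs of 8. Over 19 alternative fits the medians of the MEP, mevalonate, gibberellin, monolignol, flavonoid and jasmonate lists stayed above 0, and those of the photosystem, antenna, Calvin cycle and ribosomal lists and of oxidative phosphorylation below 0. The medians of the prenyl diphosphate synthase, carotenoid and proteasome lists took both signs.

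Light harvesting stood lower in *T. media*. All 24 photosystem subunits had a log2 fold change below 0 (median -0.87). Of these, 9 were called (37.5%, against 14.4% of all orthologs), none of them higher in *T. media*. Under 6 other scalings, 23 or 24 of the 24 stayed below 0. PsbS (K03542), which lets excess light energy leave photosystem II as heat, stood at 231, 603 and 293 against 1419, 2028 and 2124 (-2.31), and the photosystem I subunit PsaL (K02699) at 1127, 1938 and 1636 against 3308, 4695 and 4779 (-1.44). Of the 11 antenna proteins, which bind chlorophyll around the photosystems, 7 were called and all were below 0 (median -1.13, with 10 of 11 below 0 on TPM), among them Lhcb1 (K08912) at 1850, 4479 and 4072 against 7239, 9458 and 9335 (-1.32). At the edge of the fold threshold, the oxygen-evolving enhancer K08901 was called and photosystem I subunit III (K02694) was not, both at -1.0 when rounded, and the former lost its call under 10 of 19 alternatives. The electron carriers ferredoxin (K02639), at 400, 712 and 550 against 2661, 2520 and 2934 (-2.29), and plastocyanin (K02638, -1.76) were also called lower.

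Enzymes of the Calvin cycle, which fixes carbon dioxide, had the same direction. Of 13 tested, 7 were called (53.8%, against 14.4% of all orthologs), all lower in *T. media* (median -1.05). All 13 were below 0, and 12 of 13 with ortholog factors, library sizes or DESeq2. Class I aldolase (K01623) stood at 3529, 6054 and 4917 against 11627, 14650 and 14241 (-1.48), with sedoheptulose bisphosphatase (K01100, -1.33), glyceraldehyde phosphate dehydrogenase (K05298, -1.29), fructose bisphosphatase (K03841, -1.31) and transketolase (K00615, -1.14) also called. Fructose bisphosphatase lost its call on TPM (-0.99), and transketolase lost it under 5 of 19 alternatives, with -0.21 on TPM. The remaining calls were phosphoglycerate kinase (K00927, -1.05) and the class II aldolase K01624. The kinase lost its call under 6 of 19 alternatives, with -0.35 at its weakest. The aldolase had few counts, and its groups overlapped, as given above. The Rubisco small subunit (K01602), which is part of the carboxylating enzyme, had a log2 fold change of -0.10 and was not called.

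Within these lists, *T. media* replicate 1 was the lowest library. The summed TPM (a read density corrected for transcript length and scaled per library) of photosystem subunits was 14188, 28273 and 24059 in *T. media* and 33696, 42324 and 41346 in *T. cuspidata*, and that of antenna proteins was 12505, 26137 and 24034 against 33590, 39101 and 36939. Without this library the photosystem calls went from 9 to 5 (median -0.67), the antenna calls from 7 to 4 (-0.87), the calls in the photosynthesis pathway from 16 to 7, and those in the Calvin cycle from 7 to 4, all still lower in *T. media*. Over the 19 alternatives the calls ran from 5 to 13 in photosystems, 4 to 8 in antenna proteins, 4 to 8 in the Calvin cycle and 7 to 21 in photosynthesis. The wood markers that could be measured, cellulose synthase (K10999) and cinnamyl alcohol dehydrogenase (K00083), summed to 2034, 1568 and 1643 TPM in *T. media* and 1246, 1085 and 1078 in *T. cuspidata*. These were 2 of 7 wood markers listed, and 24 of 44 photosystem subunits and 11 of 11 antenna proteins were present, none at 0. Both marker sums thus moved with the species in opposite directions, and their part in the results was not tested.

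Ribosomal proteins, the protein part of the ribosome, showed a similar direction with smaller changes. Of 118 tested, 115 were below 0 (median -0.75, and 108 to 115 under the other scalings). Called lower in *T. media* were 28 (23.7%, against 14.4% of all orthologs called), and none was called higher. The 78 of eukaryotic type (median -0.74, 17 called) and the 40 of bacterial type, which serve plastids and mitochondria (median -0.77, 11 called), had like medians. This split was made after the values were seen, and without *T. media* replicate 1 the bacterial type had 6 called and the eukaryotic type 19. The number called ran from 9 to 34 over 19 alternative fits, and was 12 with TMM factors computed on the orthologs. The 34 proteasome subunits, which degrade proteins, had a median of -0.02, with no ortholog called by edgeR, 1 by DESeq2, 1 by limma and 11 at an unadjusted p below 0.05. Of 75 orthologs of oxidative phosphorylation, 10 were called lower in *T. media* (13.3%, near the 14.4% of all orthologs, median -0.28).

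Monolignol synthesis, the branch that makes lignin monomers, held 4 called orthologs of 9 (44.4%, against 14.4% of all orthologs), all higher in *T. media* (median 0.67). Phenylalanine ammonia-lyase (PAL, K10775), the entry of the pathway, stood at 208, 150 and 206 against 146, 212 and 206, a log2 fold change of 0.00 ± 0.17 (adjusted p = 0.996), and of 0.78 on TPM (limma, pseudocount 1, adjusted p = 0.0325), not called in either. Cinnamate 4-hydroxylase (K00487, 0.67), 4-coumarate:CoA ligase (-0.17), ferulate 5-hydroxylase (-0.11) and cinnamoyl-CoA reductase (K09753, -0.33) were not called. Called were coumaroyl ester 3'-hydroxylase (K09754), at 216, 273 and 261 against 93, 121 and 127 (1.14), and cinnamyl alcohol dehydrogenase (K00083), at 205, 187 and 219 against 75.1, 90.1 and 90.9 (1.26, adjusted p = 1.7e-05). The remaining pair was K12355, coniferyl-aldehyde dehydrogenase, which makes ferulate, at 64.2, 57.3 and 66 against 17.1, 9.75 and 10.9 (2.31), and caffeoyl-CoA O-methyltransferase (K00588), which methylates the ring, at 3646, 2948 and 3646 against 639, 967 and 1344 (1.80 ± 0.26, adjusted p = 0.00043). The last of these rested on the unigene comp24815_c0, at 1956, 1735 and 2180 against 41.2, 47.9 and 73.6. On TPM, the alcohol dehydrogenase reached a log2 difference of 0.42 and lost its call.

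Flavonoid synthesis held 2 called orthologs of 8 (25%, against 14.4% of all orthologs), both higher in *T. media*. Over the 19 alternatives the calls ran from 1 to 4. Chalcone synthase (K00660), the entry enzyme, stood at 1081, 900 and 987 against 547, 387 and 453 (1.10, adjusted p = 0.00307), a call lost without *T. cuspidata* replicate 2. Flavanone 3-hydroxylase (K00475) stood at 648, 497 and 578 against 234, 251 and 292 (1.15). The unigenes of this list were one-sided as well, with 25 of 48 called higher in *T. media* and 1 in *T. cuspidata*. In all 54.2% were called, against 25.8% of all unigenes with a K number.

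The summed peroxidase ortholog K00430, whose enzymes oxidize phenolics with hydrogen peroxide, was lower in *T. media*. It stood at 971, 1057 and 998 against 2346, 3142 and 3188 (-1.52 ± 0.14, adjusted p = 4.8e-05). Of its 54 unigenes, 18 were called higher in *T. media* and 15 in *T. cuspidata*, so that the sum opposed the larger number. PER42 (comp26037_c0), at 97.8, 176 and 171 against 1261, 1856 and 1761, held 14.7% of the ortholog's reads in *T. media* and 56.2% in *T. cuspidata*.

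All 9 tested orthologs of jasmonate synthesis had a log2 fold change above 0 (median 0.81, with 8 of 9 above 0 on TPM). Of these, 3 were called (33.3%, against 14.4% of all orthologs). Lipoxygenase (K00454), which oxidizes linolenic acid at the start of the route, stood at 3189, 3860 and 4603 against 1109, 1238 and 1294 (1.68, adjusted p = 5.2e-05). On TPM it had 0.72 and lost its call. Among its 20 unigenes, 7 were called higher in *T. media* and 2 in *T. cuspidata*, with LOX1.1 (comp28144_c0) at 357, 457 and 494 against 0.136, 0.0472 and 0.0956. This K number joins all unigenes under the general name lipoxygenase. Which of them, LOX1.1 included, serve the jasmonate route was not tested. Allene oxide cyclase (K10525) stood at 276, 299 and 283 against 82.2, 99.9 and 109 (1.56, adjusted p = 3.6e-05). Oxophytodienoate reductase (K05894) stood at 491, 451 and 404 against 184, 215 and 239 (1.08, adjusted p = 0.00185), a call lost without *T. cuspidata* replicate 1. Allene oxide synthase (K01723), the step between lipoxygenase and the cyclase, stood at 421, 614 and 704 against 253, 293 and 375 (0.92, adjusted p = 0.00358), under the fold threshold here and called in 7 of 19 alternatives, with TMM factors from the orthologs, library sizes, DESeq2 and TPM among them. The ligase K10526 and the beta-oxidation enzymes K00232, K10527 and K07513, which shorten the chain, and jasmonate O-methyltransferase (K08241) ran from 0.03 to 0.81 and were not called.

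In the isoprenoid supply routes the share called was near or below the 14.4% of all orthologs. In the MEP pathway 1 of 8 was called (12.5%, median 0.40), CDP-methylerythritol kinase (K00919), at 68.6, 63.9 and 58.1 against 30.3, 24.7 and 31.4 (1.14 ± 0.26, adjusted p = 0.00453), which held in all alternatives. The entry enzymes, deoxyxylulose phosphate synthase (K01662, DXS), at 354, 447 and 390 against 233, 343 and 335 (0.38), and its reductoisomerase (K00099, DXR), at 94.9, 126 and 111 against 52.8, 78.3 and 82.8 (0.64), were not called. The middle and last steps ran from -0.41 (K00991) through 0.20 (K03526) and 0.42 (K03527) to 0.59 (K01770). Isopentenyl diphosphate isomerase (K01823), which interconverts the isoprenoid units, stood at 49.3, 50.3 and 42.4 against 76.9, 90.3 and 91.2, so that the libraries did not overlap, with a log2 fold change of -0.86 ± 0.10 (adjusted p = 0.00014) under the fold threshold. None of the 6 mevalonate orthologs was called by edgeR or limma and 1 was by DESeq2 (median 0.26, 5 at an unadjusted p below 0.05), with HMG-CoA reductase (K00021) at 0.41. Of 8 prenyl diphosphate synthases listed, 3 were tested, and none of these was called by any of these tools (0 at an unadjusted p below 0.05). By name they were farnesyl (K00795, -0.04), octaprenyl (K02523, -0.02) and hexaprenyl (K05355, 0.37) diphosphate synthase. None bore the name of a geranylgeranyl diphosphate synthase, so that step was not measured under its own K number. The mevalonate kinase K00869, at 0.92, and HMG-CoA synthase K01641, at -0.76, were the extremes of the route.

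Of 6 orthologs listed under gibberellin synthesis, 3 were called (50%, against 14.4% of all orthologs), all higher in *T. media*. A further one, ent-copalyl diphosphate synthase by name (K04120), had a log2 fold change of -1.52, was called lower in 7 of 19 alternatives, and in *T. cuspidata* consisted almost wholly of a taxadiene synthase unigene described further on. Ent-kaurene synthase (K04121) stood at 170, 151 and 136 against 83.7, 15.6 and 22.8 (1.91, adjusted p = 0.0168), a call lost without *T. cuspidata* replicate 3. Ent-kaurenoic acid hydroxylase (K04123) stood at 19.1, 16.2 and 14 against 7.18, 5.47 and 4.92 (1.49), and gibberellin 3-oxidase (K04124), which makes the active hormone, at 6.87, 10.4 and 11.9 against 0.652, 0.59 and 1.65 (3.32, adjusted p = 0.00083). Ent-kaurene oxidase (K04122, 0.89) and gibberellin 20-oxidase (K05282, -0.47) were not called. Of 12 carotenoid and abscisic acid orthologs, xanthoxin dehydrogenase (K09841), which leads to abscisic acid, stood at 965, 587 and 503 against 66.4, 64.6 and 86.9 (3.24), and abscisic acid 8'-hydroxylase (K09843), which breaks that hormone down, was also called higher (1.93, but 0.34 on TPM, where the call was lost). Violaxanthin de-epoxidase (K09839) was called lower (-1.17), a call lost with library sizes alone. In all 25% of this list was called, against 14.4% of all orthologs.

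Of 31 starch and sucrose orthologs, 8 were called higher in *T. media* and only invertase lower (29% called, against 14.4% of all orthologs, median 0.37). In a shorter list of 16 starch and sucrose enzymes, 4 were called higher and 1 lower, 10 were below 0, and the median was -0.21, which ran from -0.28 to 0.05 over the alternatives. K00693, a glycogen (starch) synthase by name, stood at 2095, 2054 and 2051 against 338, 389 and 403 (2.46), and the ADP-glucose pyrophosphorylase K00975, which makes the substrate for starch, at 1569, 1328 and 1306 against 530, 420 and 372 (1.67). Starch phosphorylase K00688 (1.27) and 4-alpha-glucanotransferase K00705 (1.96), which break starch down, were called in the same direction. The remaining calls were not starch enzymes by name. They were the beta-glucosidases K05349 (1.25) and K05350 (1.57), glucan 1,3-beta-glucosidase K01210 (3.06) and trehalase K01194 (1.05, a call lost under 2 of 19 alternatives).

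**Figure D2:**
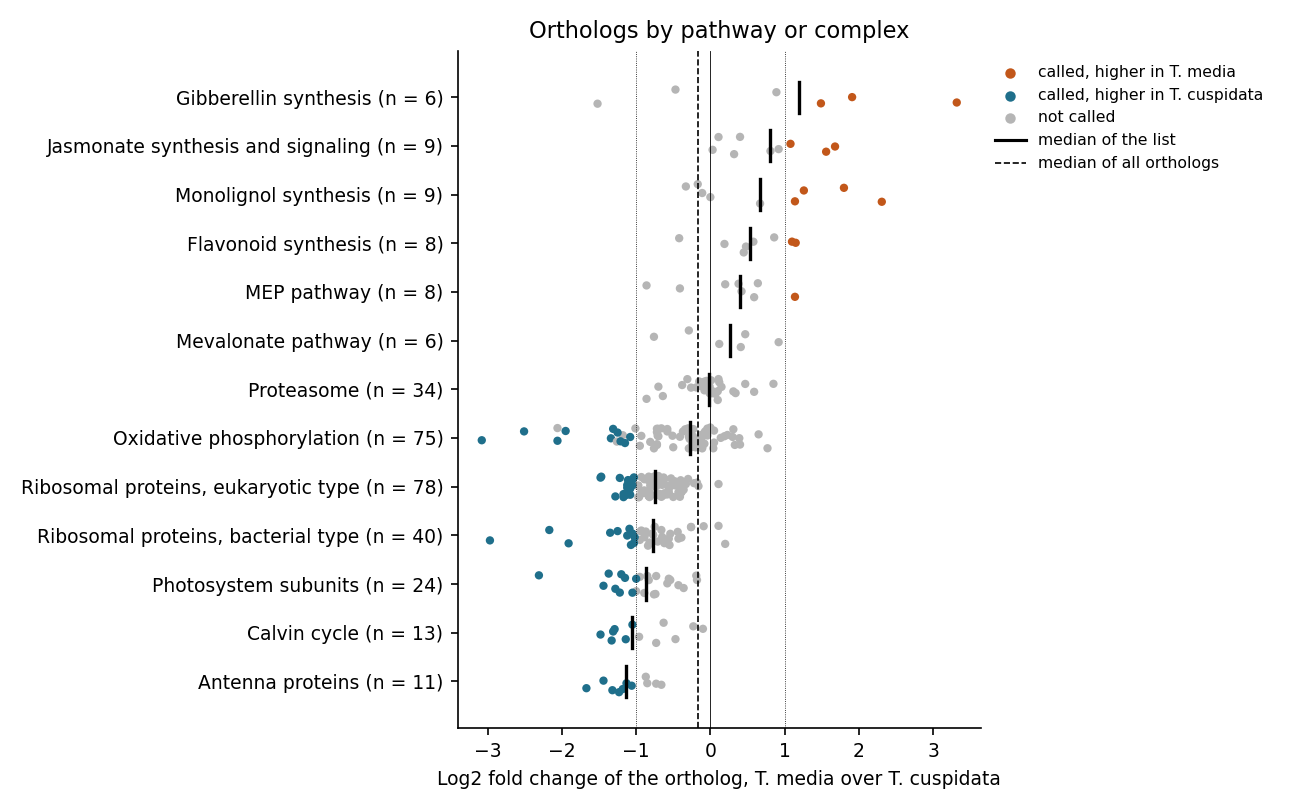
Log2 fold change of *T. media* over *T. cuspidata* for each ortholog of 13 pathways or complexes, with called orthologs colored by direction, the list median as a bar, and the median of all orthologs (-0.17) as a dashed line. Jasmonate synthesis lies wholly above 0 and the photosystem, antenna and Calvin cycle lists wholly below it (the aldolase K01624, absent from *T. media*, is not drawn), with at most 1 member of each crossing 0 under another scaling, while proteasome subunits center on -0.02.

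The same test on single unigenes gave more calls than the test on orthologs. Of 8221 unigenes with a K number, 2124 (25.8%) were called, with 1313 (16%) on the *T. media* side and 811 (9.86%) on the other. The SD of the log2 fold change was 2.53 over unigenes and 0.89 over orthologs. The unigenes also leaned toward *T. media* (61.8% of calls), and the orthologs toward *T. cuspidata* under the same factors.

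After summing, 1562 of the 2124 called unigenes (73.5%) belonged to an ortholog that was not called, 472 (22.2%) to one called in the same direction, and 90 (4.24%) to one called the other way. The loss was 77.1% of the unigenes higher in *T. media* (1012 of 1313) and 67.8% of those higher in *T. cuspidata* (550 of 811). Of the 90 that ended under an ortholog called the other way, 77 were higher in *T. media*. Most of the lost calls, 1024 (65.6%), lay in orthologs with an adjusted p below 0.05 and a fold of at most 2, and 529 (33.9%) in orthologs that missed both criteria. Unigenes called in opposite directions shared an ortholog for 1037 of the lost calls (66.4%), in 157 orthologs, and the other 525 (33.6%) lay in orthologs with calls in a single direction.

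A lost unigene usually held few of its ortholog's reads. Its median share was 2.16% (quartiles 0.306 to 12.3%), against 71.8% (10.7 to 100%) where the ortholog was called in the same direction. The latter group includes orthologs of a single unigene, whose share is 100% by definition. Where the ortholog held a single unigene no call was lost (0 of 103), but there the sum is the unigene itself, so that a loss was hardly possible. Lost were 194 of 338 calls (57.4%) where the ortholog held 2 or 3 unigenes, 447 of 621 (72%) where it held 4 to 9, and 921 of 1062 (86.7%) where it held 10 or more. The share of orthologs called hardly moved with size, at 14, 15.4, 14 and 12.3%, while the share of their unigenes called went from 13.5 through 20.7 and 23.7 to 33.2%.

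**Figure D3:**
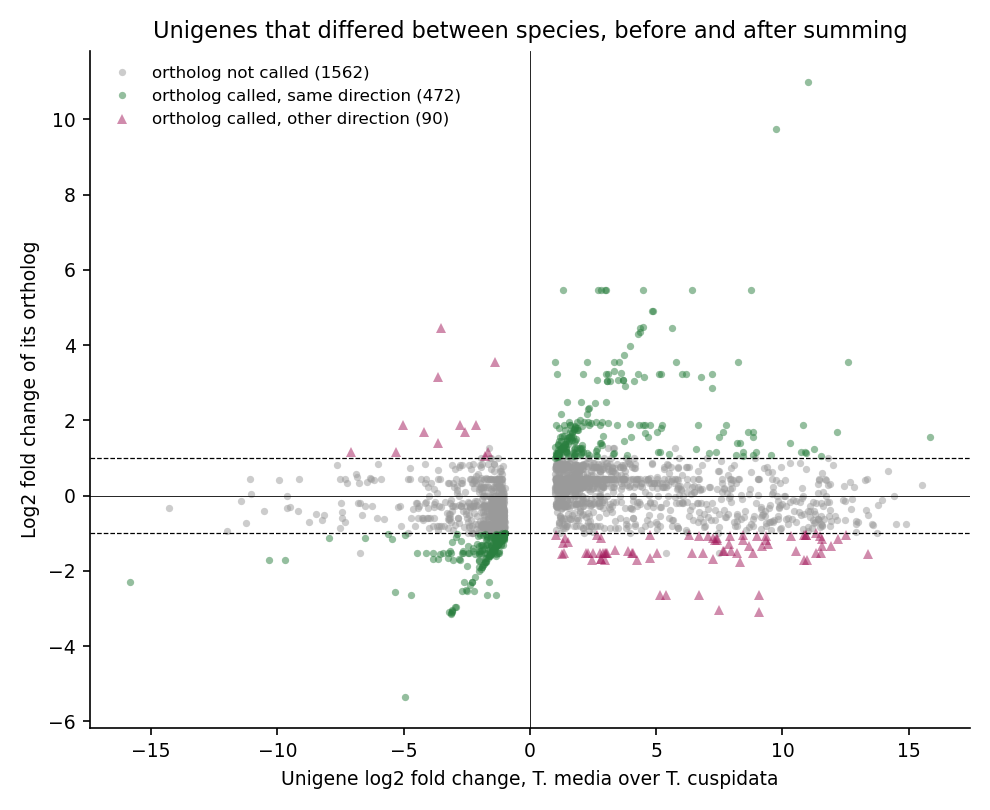
Log2 fold change of each called unigene with a K number against that of the ortholog it was summed into, with points colored by whether the ortholog was called in the same direction, in the other direction, or not called. The 1562 unigenes of orthologs that were not called spread widely along the unigene axis. They lie in a narrow band on the ortholog axis, which the fold threshold of a call largely sets.

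**Figure D4:**
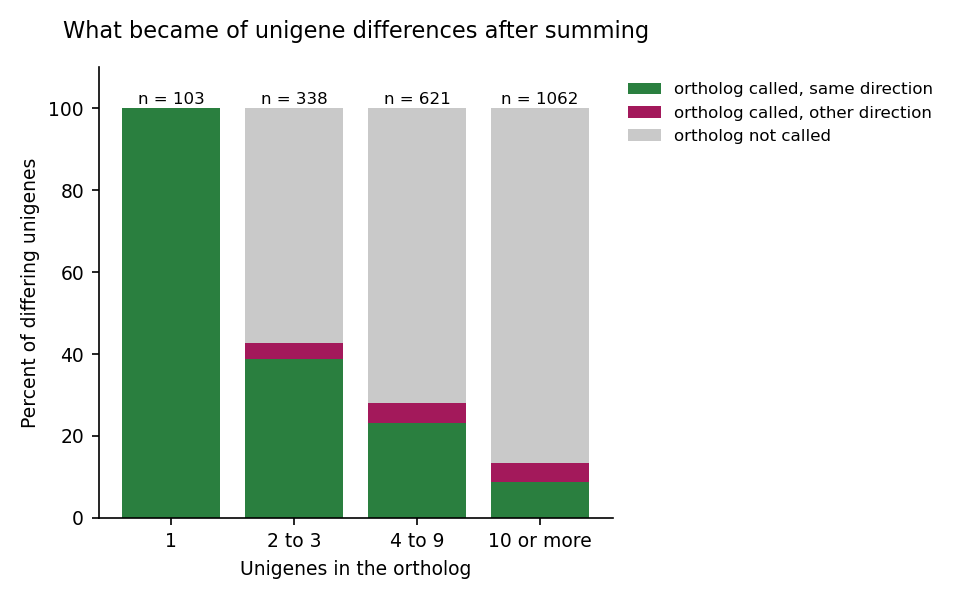
Percent of called unigenes with each outcome after summing, by the number of unigenes in their ortholog. The share lost goes from 194 of 338 in orthologs of 2 or 3 unigenes to 921 of 1062 in those of 10 or more. In orthologs of a single unigene (0 of 103 lost) the sum is the unigene itself.

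Some unigenes were read in one species only. Of the unigenes called higher in *T. media*, 240 (18.3%) had 0 counts in every *T. cuspidata* library, and 192 of these (80%) were lost on summing. Of those called higher in *T. cuspidata*, 32 (3.95%) had 0 counts in every *T. media* library, and 28 (87.5%) were lost. They were short, with median lengths of 358 and 343 bases against 778 and 1048 for all called unigenes in the same direction. The most abundant unigene of an ortholog differed between the species in 181 of 1328 orthologs with several unigenes (13.6%), of which 147 were not called. The share of an ortholog's reads that lay on different unigenes had a median of 2.34 to 4.39% between libraries of a species and 7.99 to 10.2% between species.

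Among uncalled orthologs with unigenes called in both directions, those with most called unigenes included kinases, cytochromes P450 and transcription factors. K00924, which has no name in the annotation, held 613 unigenes, of which 163 were called higher in *T. media* and 31 in *T. cuspidata*, and its sum had a log2 fold change of 0.44 (13995 against 10327 normalized CPM on average, adjusted p = 0.0127). The serine/threonine kinases of K08286, with 127 unigenes (36 and 10 called), had 0.23, and K00517, unnamed and holding P450 unigenes, 82 in all (30 and 10), had 0.33. The receptor-associated kinase number K04733, with 61 unigenes (21 and 7), had 0.84, the glucosyltransferase K08237, with 46 (10 and 15), had -0.28, and the oligopeptide transporters of K03305, with 40 (17 and 5), had 0.81. None of these sums was called, as the rule required. Over all unigenes with a K number, 16% were called higher in *T. media* and 9.86% in *T. cuspidata*. Such numbers join many different genes, and a small sum says nothing about the members one by one.

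The ethylene-responsive factors of K09286 show this. This family of transcription factors held 73 unigenes, 20 called higher in *T. media* and 12 in *T. cuspidata*, and its sum was -0.19 (1118 against 1273 on average, adjusted p = 0.129). RAP2-4 (comp30029_c0) stood at 159, 217 and 221 against 68.9, 47.7 and 51.2 (1.83). DREB2C (comp29666_c0), of the drought-responsive branch, stood at 1.3, 0.344 and 0.91 against 121, 82.6 and 79.4 (-6.75), and ERF1A (comp21724_c0) had -3.18.

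The taxane P450s were hidden in the same way. K07437 is named for CYP26A, a retinoid hydroxylase of animals, but 19 of its 49 unigenes bear the name CYP725A1, the taxane 10-beta-hydroxylase, and 6 the name CYP725A2, the taxane 13-alpha-hydroxylase. The sum averaged 1391 against 2085 (-0.58, adjusted p = 0.0673) and was not called, although its libraries did not overlap, with 8 unigenes called higher in *T. media* and 15 in *T. cuspidata*. Unigenes with a common name differed in both directions. The CYP725A1 unigene comp28508_c1 averaged 15.8 ± 2.68 against 340 ± 125 (-4.43, adjusted p = 0.00029), and another, comp27610_c0, was 109, 53.5 and 53.1 against 1.03, 0.914 and 2.8 (5.5, adjusted p = 0.00107). CYP716B1 (comp28015_c0), of a P450 family known for triterpenoids, stood at 224, 186 and 141 against 14.2, 9.84 and 8.53 (4.08). Over all 37 unigenes named CYP725A1, 17 of which had no K number, 3 of 35 tested were called higher in *T. media* and 18 in *T. cuspidata*. Their summed normalized CPM was 226, 129 and 128 against 337, 714 and 559. The 12 named CYP725A2 (3 called higher and 1 lower of 11) summed to 486, 525 and 510 against 400, 743 and 640, so that the libraries overlap. These look-ups by gene name were made after the values were seen.

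In some smaller orthologs a switch between unigenes was visible. They were picked, after the values were seen, for the largest difference in read shares. Only uncalled orthologs with unigenes called in both directions were eligible, so that opposite unigene calls and an uncalled sum were required. Ent-copalyl diphosphate synthase (K04120), the cyclase of gibberellin synthesis by name, held 3 unigenes with names of other diterpene cyclases. Its sum stood at 150, 191 and 223 against 301, 707 and 611 (-1.52 ± 0.61, adjusted p = 0.055), not called here and called in 7 of 19 alternatives. The taxadiene synthase unigene TDC1 (comp26263_c0), for the first committed step of taxane synthesis, was 6.25, 3.47 and 5.56 against 298, 705 and 609 (-6.72, adjusted p = 0.00062). It held 2.71% of the ortholog's reads in *T. media* and 99.6% in *T. cuspidata*. The other two were the reverse: ag1 (comp23863_c0), named for a resin acid cyclase of conifers, was 62.3, 103 and 158 against 1.85, 0 and 0 (7.5), and TPS-LAS (comp29934_c0), named for levopimaradiene synthase, was 81.2, 84.5 and 58.9 against 0.951, 1.86 and 2.51 (5.39). The large unigene differences, in opposite directions, thus vanished into a sum that missed the threshold, as the selection required.

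Further examples, also picked after the values were seen, came from other functions, with K03627 and K02964 from the same selection. For the transcriptional coactivator MBF1 (K03627) the sum was 275, 277 and 270 against 345, 365 and 379 (-0.41, adjusted p = 0.00181). Beneath it, the MBF1B unigene comp1840_c0 was 143, 124 and 113 against 0.2, 0 and 0, while a second MBF1B unigene, comp22740_c0, was 103, 108 and 110 against 257, 253 and 263. Ribosomal protein S18e (K02964) was 276, 284 and 266 against 463, 470 and 531 (-0.83), with comp10368_c0 averaging 126 ± 6.94 against 0.0606 ± 0.062, and comp22785_c0 at 118, 115 and 111 against 420, 422 and 483. In isopentenyl diphosphate isomerase, IPI1 (comp10487_c0) was 7.76, 7.02 and 6.77 against 0 in all 3 libraries, and IPI2 (comp25125_c0), the abundant unigene, had a log2 fold change of -1.10. In each of these 3 a unigene found almost only in *T. media* stood beside another unigene of the ortholog that was higher in *T. cuspidata*. Whether such pairs are gene copies or alleles that the assembly kept apart was not tested.

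PAL (K10775), whose summed counts overlapped between the species, held differences in its parts. Of its 14 unigenes, 6 were called higher in *T. media* and 3 in *T. cuspidata*. The unigene comp29495_c0 was 80, 39.5 and 65.9 against 25.6, 30.3 and 24.1 (1.21), whereas comp27052_c0 was 11.7, 15.1 and 15.2 against 33.9, 55.8 and 59.1 (-1.82), and comp13676_c0 was 0.976, 2.84 and 2 against 4.89, 48 and 39.6 (-4.00).

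**Figure D5:**
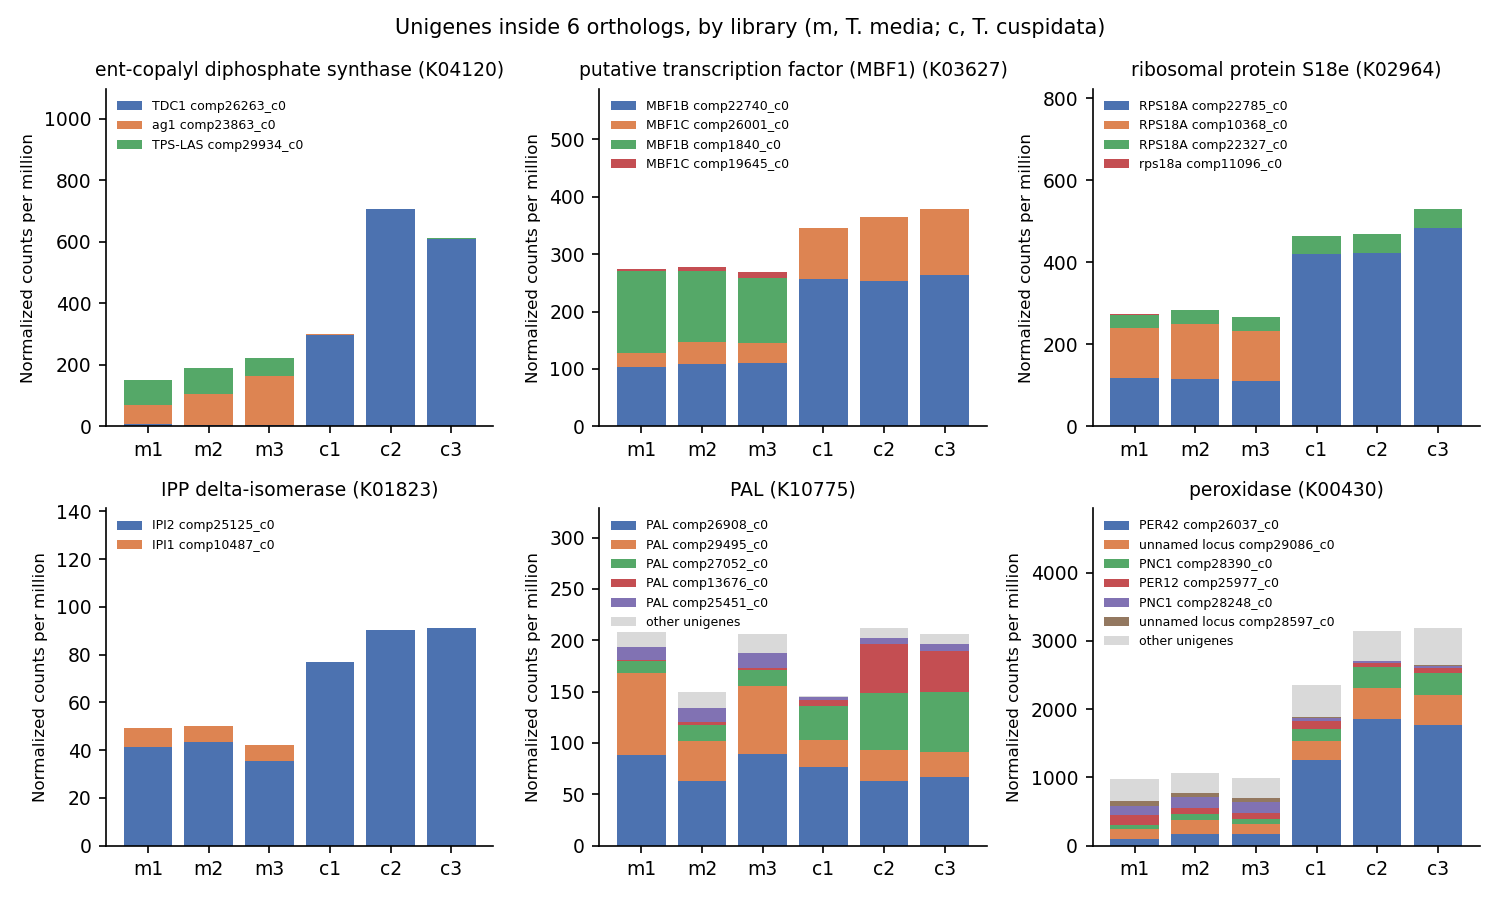
Normalized CPM of the unigenes inside 6 orthologs, stacked by library (m1 to m3, *T. media*; c1 to c3, *T. cuspidata*). In K04120 nearly all of the *T. cuspidata* bars is the TDC1 unigene comp26263_c0 (298 to 705), which is 3.47 to 6.25 in *T. media*, and in PAL (K10775) the totals overlap while the makeup differs.

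The converse was rare. Of the called orthologs, 6 held no called unigene, among them cytochrome b6 (K02635) and the ATP synthase alpha subunit (K02111). None of the 6 held 3 or more tested unigenes, and 4 held a single unigene. In those 4 the sum is the unigene itself, so that the call did not come from summing. The call of K02635 was lost under 7 of 19 alternatives, and that of K02111 without *T. media* replicate 1, *T. media* replicate 3 or *T. cuspidata* replicate 1 (lowest size -1.17). Another 8 were called against the direction of most of their called unigenes. Beside peroxidase and invertase these included the elongation factor EF-1 alpha (K03231), at 3311, 3780 and 4114 against 8534, 7350 and 7757 (-1.08, 4 unigenes called higher and 1 lower), where REFA1 (comp30253_c0) held 99.7% of the reads in *T. media*. The RAV transcription factors (K09287) stood at 228, 254 and 244 against 808, 730 and 775 (-1.67, 3 higher and 2 lower), and phosphoglycerate kinase (K00927) at 599, 775 and 781 against 1277, 1588 and 1598 (-1.05, 3 higher and 1 lower). The calls of K03231 and K00927 were each lost under 6 of 19 alternatives. When counts were summed over unigenes that share both the K number and the gene name, 746 of the 2124 unigene calls (35.1%) were lost, against 1562 by K number alone.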

How the data were processed

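Twig RNA was selected by the authors with oligo(dT) beads and sequenced. The reads of all species were assembled together with Trinity 2.4.0, and unigenes were annotated against public databases including KEGG. The counting tool is not given in the sources used here. The authors deposited, per library, expected counts and TPM per unigene for 8 libraries. For *T. mairei* replicate 3 they deposited RPKM beside TPM and no counts, and it entered no fit. Each unigene had at most 1 K number, and sums were taken over it. Expected counts were rounded to whole numbers. edgeR 4.0.16 (R 4.3.3) was run with TMM factors from all unigenes, filterByExpr by species, and quasi-likelihood tests of *T. media* minus *T. cuspidata* on 8 libraries, for orthologs and for unigenes. Values printed per library are TMM-normalized CPM computed from the deposited counts. They are not corrected for length, and compare a gene between species only. The deposited TPM were used in alternatives (limma 3.58.1, pseudocounts 1 and 0.1), for the tissue markers and for the naming filter. DESeq2 1.42.0 was another alternative.

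Named orthologs were the 8 highest and 8 lowest called log2 fold changes among those with mean TPM of 5 or more and no overlap. Next came the 8 uncalled orthologs with most called unigenes among those with unigenes called in both directions. Also named were up to 5 called against most of their unigenes. Another rule took up to 5 called with 3 or more tested unigenes of which none was called (none was found). Members of fixed pathway lists were named too. Given with these were the 2 most counted called unigenes in each direction. Of the 8 lowest, 1 is not reported here. Members and lists were chosen with earlier results of these data known. After the tables were opened, 2 numbers were removed from the starch list and 3 added to the prenyl diphosphate synthases. The lists of 16 taxane-specific and 7 auxin orthologs had no member in the annotation. On simulated counts, 94.1% of orthologs changed by 1.5 on the log2 scale were called, 98.3% at 2 and 100% at 3, against 23.5%, 50.8% and 81.8% of unigenes. The biological coefficient of variation was 0.144 for orthologs and 0.37 for unigenes. The tables carry no sequences and none are shown.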

Additional observations from a re-analysis of the deposited data

How the results depend on the processing

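With TMM factors from the orthologs, library sizes alone and DESeq2, 120, 98 and 111 orthologs were higher in *T. cuspidata* in place of 190. With RLE factors 202 were, and with limma on TPM 130 and 141 (pseudocounts 1 and 0.1). With no minimum fold, 447 were higher in *T. media* and 801 in *T. cuspidata*, 3590 unigenes with a K number were called and 860 of these were lost on summing. The number of orthologs called without a called unigene was 125 with no minimum fold, 18 with a replicate block, 19 with ortholog factors, 27 with DESeq2, and 13 and 17 with limma on TPM (pseudocounts 1 and 0.1), in place of 6. Summing by K number and gene name, chosen after seeing the data, lost 746 unigene calls. Leaving out each replicate in turn gave 107 to 118 orthologs higher in *T. media*, 156 to 222 higher in *T. cuspidata*, 1853 to 2288 called unigenes with a K number, 1366 to 1638 of them lost, and 3 to 15 orthologs called without a called unigene. On TPM, 3 called orthologs reversed, K08910 to 0.35 with either pseudocount, K02933 to 0.10 and K03949 to 0.26; these hold very short unigenes, and the cause was not tested. Of 301 calls, 242 to 299 were kept when a replicate was left out, fewest without *T. media* replicate 1, 231 with ortholog factors, 209 with library sizes and 221 with DESeq2. Of 120 called orthologs on the naming rule, 64 were kept in all 19 alternatives. Replicate numbers do not mark a shared origin in the labels. Deviations of same-numbered libraries correlated at 0.066, 0.142 and 0.043, every library correlated best with that of its own number, and the replicate block gave 113 and 193 calls, 1962 unigene calls and 1424 lost. The fit without *T. mairei* replicate 3 was not run, since it had no counts, and each unigene carries 1 K number, so the alternatives on several numbers were not run. Of the unigenes with a K number, 1222 (14.5%) have an effective length under 100 bases.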

Other observations

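Nitrogen metabolism held 4 orthologs called higher in *T. media* and 2 lower of 19 tested (31.6%, against 14.4% of all orthologs). Asparagine synthase (K01953), which stores nitrogen as asparagine, stood at 325, 302 and 521 normalized CPM in *T. media* and 62.2, 46 and 50.3 in *T. cuspidata* (log2 fold change 2.86). Carbonic anhydrase (K01674) averaged 361 ± 143 against 31.1 ± 3.13 (SD, n = 3 each, 3.54), and nitrilase (K01501) 390 ± 32.5 against 159 ± 61.9 (1.29). Glutamine synthetase (K01915), which assimilates ammonium, averaged 2624 ± 759 against 6231 ± 622 (-1.25), and aminomethyltransferase (K00605), of the glycine cleavage system that works in photorespiration, 226 ± 77.1 against 638 ± 72.6 (-1.5). The call of nitrilase was lost without *T. cuspidata* replicate 1 and that of glutamine synthetase on TPM (-0.85). The count of this pathway includes K00368, whose unigenes bear laccase names. The orthologs named in this paragraph and those of chlorophyll synthesis were chosen after their values were seen.

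Of 25 porphyrin and chlorophyll orthologs, 6 were called lower in *T. media* and 1 higher (28% called, against 14.4% of all orthologs, median -0.71). Protochlorophyllide reductase (K00218), the light-dependent step of chlorophyll synthesis, averaged 233 ± 32.7 against 629 ± 26.1 (-1.43), and glutamyl-tRNA reductase (K02492), an early step, 59.4 ± 16.5 against 121 ± 4.68 (-1.02, a call lost under 4 of 19 alternatives). The single ortholog called higher was a subunit of the light-independent reductase (K04037), low in both species at 2.69 ± 0.566 against 0.203 ± 0.177 (3.73). Of 11 heat shock orthologs 27.3% were called, against 14.4% of all orthologs. Called higher in *T. media* were 2, HSP90 beta (K09487, 1.10) and K09486 (1.04), both lost without *T. media* replicate 1. HSP70 (K03283) was called lower, at 2027, 2349 and 2211 against 8726, 6087 and 6762 (-1.71), with 5 of its 37 unigenes called in each direction. Of 13 glutathione orthologs 3 were called higher and ascorbate peroxidase (K00434) lower (-1.54), in all 30.8% against 14.4% of all orthologs. Of 13 clock and light receptor orthologs, 1 was called, GIGANTEA (K12124, 1.11), which is 7.69% against 14.4% of all orthologs, and this call was lost on TPM with a pseudocount of 1 and without *T. cuspidata* replicate 3.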
